A study of Mus musculus with 24 samples.

Results

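Xbp1 and the genes of a pair of endoplasmic reticulum (ER) J-proteins, Dnajb9 and Dnajc3, were followed in mouse embryonic fibroblasts under ER stress. The 3 genes were chosen by name, and every probe set that the array's gene table assigned to them was kept. They were read by 7 of the 12488 probe sets on the array, 1 for Xbp1, 2 for Dnajb9 and 4 for Dnajc3. Each probe set is reported apart.

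Xbp1 encodes a transcription factor of the unfolded protein response. When unfolded proteins gather in the ER, the sensor IRE1 cuts a short intron out of the Xbp1 mRNA, and the spliced form codes for the active factor. ATF6, a second ER sensor, is known to raise Xbp1 transcription. Dnajb9 and Dnajc3 are reported targets of spliced XBP1. Their products, ERdj4 and P58IPK, carry J domains, which stimulate the ATPase of the ER chaperone BiP (encoded by Hspa5). ERdj4 takes part in ER-associated degradation and holds IRE1 in check, and P58IPK binds unfolded proteins in the ER lumen. Ddit3 encodes CHOP, the factor made downstream of the sensor PERK in the same response. The array measures transcript abundance. No source used here says which part of a transcript a probe set reads, nor which splice form of Xbp1 it detects.

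Per the labels, RNA came from primary mouse embryonic fibroblasts of 2 genotypes, CHOP-/- and wild type. Cells of each genotype were untreated or had been in 2 µg/ml tunicamycin for 4 h or 8 h, and each of the 6 groups held 4 arrays lettered A to D, 24 in all. Tunicamycin blocks N-linked glycosylation and so causes ER stress. Passage 3 is stated for untreated wild type arrays A, B and C, and no passage is given for the other arrays. The labels name no solvent group and no time for the untreated cells, so a change after tunicamycin cannot be told apart from a change with time or handling. They do not say whether arrays sharing a group stand for separate cultures, and p-values reflect just the spread between these arrays, which may be technical.

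Ddit3 matched the labels in every array, with signals of 6.9 to 40.4 in CHOP-/- arrays and 215.5 to 4883 in wild type arrays. Fibroblast markers summed to between 16379 and 27265.3 per array (8 of 8 measured), although the probe set of Vim, one of them, stayed low at 8.4 to 41.1. Endothelial markers summed to at most 66.9 (4 of 4 measured) and epithelial markers to at most 235.9 (4 of 4 measured). Leukocyte markers (7 of 7 measured) moved with the array letter in wild type cells. They summed to between 106 and 591.7 in the 12 CHOP-/- arrays, against 1124.1 to 2261.2 in wild type arrays A and B and 171 to 328.1 in wild type arrays C and D. Skeletal muscle markers (4 of 4 measured) summed to 1215.2 to 1815.2 at 8 h, against 1133 to 2024.5 untreated, in CHOP-/- arrays, and to 1186 to 1633 at 8 h, against 1867.7 to 2196.6 untreated, in wild type arrays. Nearly all of this sum came from the probe set of Actc1, at 996.8 to 2088. Median signals were 63.6 for Des, 50.95 for Myod1 and 29.4 for Myog. Plasma cell markers (4 of 4 measured) were lower at 8 h, with sums of 215.6 to 241.4 against 346 to 493.2 untreated in CHOP-/- arrays and of 184.4 to 250.2 against 333 to 426.9 untreated in wild type arrays. Most of this sum came from Sdc1, with a median signal of 207.4 over all arrays. The medians were 52.85 for Prdm1, 37.5 for Ighm and 14.55 for Jchain. The part of these markers in the results was not tested, and wild type results are therefore also given without arrays A and B where that ended a call.

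The 250 bases before the annotated start of each gene are shown because they hold different numbers of sequences known as binding sites of the ER stress factors. They were taken from RefSeq (GRCm38.p6) and run 5′ to 3′ on the strand of the gene. Capitals mark every match on either strand to CCAAT or CCACG, the component boxes of the ER stress response element (ERSE), in which CCACG follows CCAAT after 9 bases.
Xbp1: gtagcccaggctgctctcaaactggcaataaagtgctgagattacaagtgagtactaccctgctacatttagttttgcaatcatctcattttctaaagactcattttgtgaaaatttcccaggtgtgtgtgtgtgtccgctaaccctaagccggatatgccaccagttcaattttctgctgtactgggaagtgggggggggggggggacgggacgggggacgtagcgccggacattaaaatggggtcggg
Dnajb9: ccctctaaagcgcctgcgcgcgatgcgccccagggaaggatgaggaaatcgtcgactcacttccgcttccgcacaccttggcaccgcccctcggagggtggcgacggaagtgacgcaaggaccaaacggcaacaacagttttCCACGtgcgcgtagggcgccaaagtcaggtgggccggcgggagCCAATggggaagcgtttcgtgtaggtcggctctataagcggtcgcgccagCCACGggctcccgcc
Dnajc3: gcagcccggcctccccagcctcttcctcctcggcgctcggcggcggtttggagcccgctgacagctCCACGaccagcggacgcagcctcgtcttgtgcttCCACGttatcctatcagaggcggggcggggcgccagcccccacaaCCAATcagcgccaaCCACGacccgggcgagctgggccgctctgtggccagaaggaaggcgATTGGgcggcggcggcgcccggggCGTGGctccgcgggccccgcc
The windows lie at chr11:5520391-5520640 on the plus strand for Xbp1, chr12:44210069-44210318 on the minus strand for Dnajb9 and chr14:118937682-118937931 on the plus strand for Dnajc3. The annotated genes are chr11:5520641-5525993 for Xbp1, chr12:44205897-44210068 for Dnajb9 and chr14:118937932-118981702 for Dnajc3. The Dnajc3 window held a complete ERSE between 105 and 87 bases before the start. Such an element was present in 37 of the 32851 windows of this length in the table, or 0.113%. Outside that element the Dnajc3 window held 3 more CCACG and 1 more CCAAT, counting both strands. The Dnajb9 window held 2 CCACG and 1 CCAAT, not spaced as an ERSE, and the Xbp1 window held neither. A CCACG was found in 28.3% of all windows and a CCAAT in 33.8%. The UPRE sequences TGACGTGG and TGACGTGA (in 0.563% and 0.35% of windows) and the composite C/EBP-ATF site TTGCATCA (in 0.791%) were not in these 3 windows. Neither was ERSE-II, in which CCACG follows ATTGG after 1 base (in 0.0304% of windows). A match is a run of letters, and no match says only that those letters are absent from the window.

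At 8 h Xbp1 gave smaller changes than the 5 usable Dnajb9 and Dnajc3 probe sets. It was called higher at both times in CHOP-/- cells and at neither time in wild type cells. Its signal was 1228.1, 1296.8, 1052.1 and 1587.8 in untreated CHOP-/- arrays A to D, 1880.6, 2087.6, 2040.7 and 1990.5 at 4 h, and 1799.9, 1684.5, 2080 and 1969.7 at 8 h. In wild type arrays A to D it was 1373.5, 1274.2, 1412.1 and 1123.7 untreated, 1535.4, 2175.1, 1989.5 and 1557.3 at 4 h, and 1569.8, 1586.8, 1931.5 and 1283 at 8 h. All 4 h and 8 h arrays of CHOP-/- cells lay above all untreated arrays of that genotype. In wild type cells the 4 h arrays lay above the untreated ones, while array D at 8 h fell within the untreated range, above the untreated array of its own letter.

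Changes were fitted with limma on log2(signal + 5.7), where 5.7 is a pseudocount, and a change was called when its p, adjusted by the Benjamini-Hochberg method over 12422 probe sets, was under 0.05. In CHOP-/- cells Xbp1 rose by 0.63 ± 0.13 (SE, log2 scale) at 4 h against untreated (adjusted p = 0.0194), or 1.55-fold. At 8 h it was higher by 0.55 ± 0.13 (adjusted p = 0.00852). In wild type cells the change was 0.49 ± 0.13 at 4 h (adjusted p = 0.0736) and 0.31 ± 0.13 at 8 h (adjusted p = 0.158), neither called. All 4 wild type 8 h arrays stood above the untreated array of their letter, and in a fit of those groups alone with the letter as a block the 8 h value of 0.31 was called (adjusted p = 0.043). It was not called with the block in the fit of all groups (adjusted p = 0.169) or in those groups alone without it (adjusted p = 0.204). At 4 h the complete separation of wild type arrays gave an exact permutation p of 0.0286 (two-sided), the smallest that 4 against 4 arrays allow. Values for 8 h against 4 h were −0.08 in CHOP-/- cells (adjusted p = 0.86) and −0.18 in wild type cells (adjusted p = 0.711), so no further change was detected after 4 h. In bulk RNA a change in the transcript per cell and a change in the mix of cells cannot be told apart. The CHOP-/- call at 4 h did not hold when any 1 of 5 arrays was left out (untreated A, B or C, or 4 h B or D), with values of 0.54 to 0.74 over all 8 such fits. Without the 6 arrays lettered C, the CHOP-/- value at 8 h was 0.41 (adjusted p = 0.101).

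**Figure D1:**
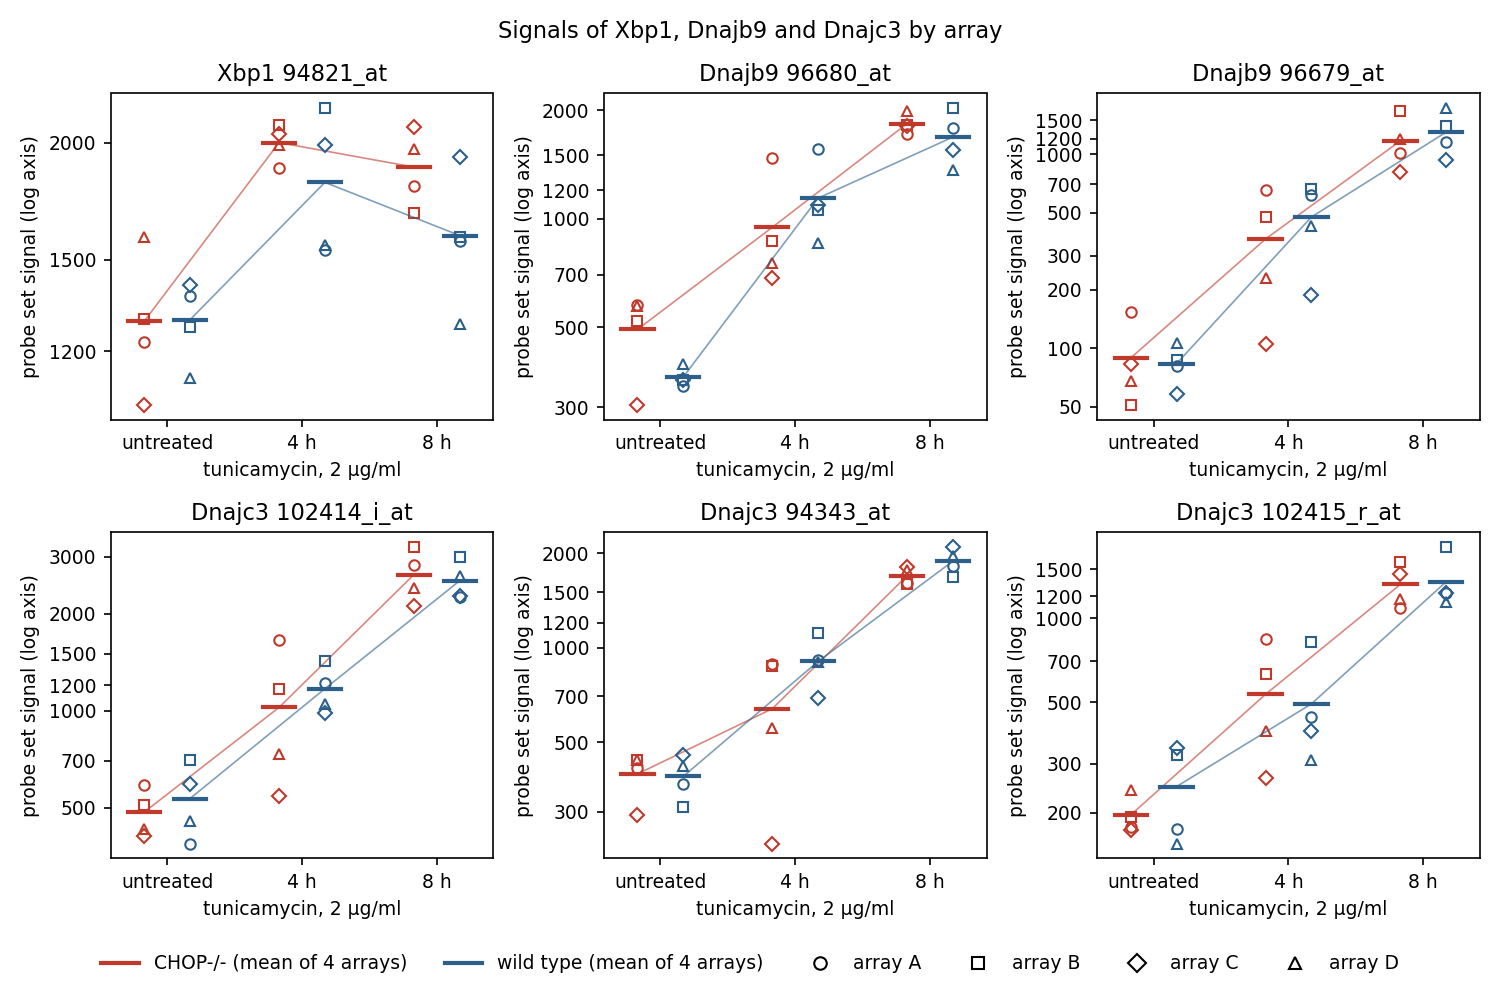
Signal of 6 probe sets of Xbp1, Dnajb9 and Dnajc3 in each array (log axis), by genotype and time of tunicamycin; symbols are arrays A to D and bars are group means (n = 4). The Xbp1 group means at 8 h lie below those at 4 h in both genotypes, while the Dnajb9 and Dnajc3 probe sets reach their highest group means at 8 h, and CHOP-/- 4 h array C is the lowest of its group for every Dnajb9 and Dnajc3 probe set shown.

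Dnajb9 transcripts were far higher at 8 h than in untreated cells in both genotypes and by both probe sets. Probe set 96680_at had signals of 577.2, 519, 304.7 and 570.9 in untreated CHOP-/- arrays A to D, 1478.3, 868.8, 685 and 754.6 at 4 h, and 1718.3, 1821.6, 1811.6 and 1992.8 at 8 h. In wild type arrays they were 344.1, 357.8, 357.4 and 396.4 untreated, 1559.6, 1055.2, 1091 and 857.9 at 4 h, and 1790.4, 2024.4, 1555.2 and 1368.9 at 8 h. The 4 h and 8 h arrays lay above the untreated arrays of their genotype without overlap. Array A was the highest of the 4 h arrays in both genotypes.

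By this probe set the change at 8 h was 1.93 ± 0.22 (SE, log2 scale) in CHOP-/- cells (adjusted p = 3.35e-06) and 2.16 ± 0.22 in wild type cells (adjusted p = 5.49e-07), or 3.82-fold and 4.46-fold. At 4 h it was 0.92 ± 0.22 in CHOP-/- cells (adjusted p = 0.0639, not called) and 1.60 ± 0.22 in wild type cells (adjusted p = 0.00016). Between 4 h and 8 h it rose by a further 1.02 in CHOP-/- cells (adjusted p = 0.0149). The same interval gave 0.55 in wild type cells (adjusted p = 0.296), where 4 h and 8 h arrays overlapped.

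The other Dnajb9 probe set, 96679_at, gave larger changes. Its signals were 154.1, 51.1, 83.3 and 67.8 in untreated CHOP-/- arrays A to D, 653.1, 476.1, 104.7 and 229.7 at 4 h, and 1011.6, 1665.5, 814.5 and 1201.2 at 8 h. In wild type arrays they were 81.2, 87.2, 58.1 and 106.5 untreated, 618.5, 664.9, 188.1 and 427.8 at 4 h, and 1151.5, 1393, 936.5 and 1726.8 at 8 h. CHOP-/- 4 h array C fell within the untreated range of its genotype, and array C was also the lowest of the wild type 4 h arrays. At 8 h no array overlapped an earlier time of its genotype.

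The change of 96679_at at 8 h was 3.73 ± 0.42 in CHOP-/- cells (adjusted p = 3.12e-06) and 3.84 ± 0.42 in wild type cells (adjusted p = 1.68e-06), or 13.3-fold and 14.3-fold. In each genotype it ranked 3 among the 12422 probe sets by size of increase. The values at 4 h were 1.84 ± 0.42 in CHOP-/- cells (adjusted p = 0.0465) and 2.31 ± 0.42 in wild type cells (adjusted p = 0.00482). The CHOP-/- call at 4 h was lost in 6 of 8 fits that left out 1 array, with values of 1.47 to 2.30. From 4 h to 8 h the change was 1.90 in CHOP-/- cells (adjusted p = 0.0178) and 1.53 in wild type cells (adjusted p = 0.0664). With the array letter as a block in the fit of all groups, the wild type value of 1.53 was called (adjusted p = 0.0195). The 2 Dnajb9 probe sets thus differed in size of change, 3.84 against 2.16 at 8 h in wild type cells, and their levels are not comparable because each has its own probes.

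Dnajc3 was read by 3 probe sets with usable signals, and all 3 were higher at 8 h in both genotypes. Probe set 94343_at had signals of 413, 438.9, 293.7 and 437.3 in untreated CHOP-/- arrays A to D, 887.5, 875.3, 237.5 and 554.9 at 4 h, and 1610.6, 1599.7, 1804.5 and 1767.9 at 8 h. In wild type arrays they were 366.8, 310.9, 456.5 and 421 untreated, 913.8, 1112.5, 688.7 and 901.7 at 4 h, and 1817.1, 1677.2, 2093.1 and 1962.9 at 8 h. CHOP-/- 4 h array C lay below every untreated array of its genotype, whereas the wild type arrays of the 3 times did not overlap.

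Its change at 8 h was 2.11 ± 0.26 in CHOP-/- cells (adjusted p = 1.09e-05) and 2.27 ± 0.26 in wild type cells (adjusted p = 3.34e-06). At 4 h it was 0.56 ± 0.26 in CHOP-/- cells (adjusted p = 0.517) and 1.19 ± 0.26 in wild type cells (adjusted p = 0.0244). Between 4 h and 8 h it rose by 1.55 in CHOP-/- cells (adjusted p = 0.00189) and by 1.09 in wild type cells (adjusted p = 0.0332).

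Probe sets 102414_i_at and 102415_r_at have the same target accession in the array's gene table and are not independent readings of Dnajc3. For 102414_i_at the signals were 588.9, 509.9, 409.9 and 429.7 in untreated CHOP-/- arrays A to D, 1650.2, 1164.4, 544 and 733.8 at 4 h, and 2820.2, 3214.6, 2115.4 and 2408.6 at 8 h. In wild type arrays they were 387.3, 702.1, 591.1 and 455.6 untreated, 1216.9, 1429.2, 983.7 and 1046.7 at 4 h, and 2244.1, 2986.3, 2264.2 and 2615.7 at 8 h. Again CHOP-/- 4 h array C alone of its group reached into the untreated range, and the 8 h arrays of both genotypes stood above all others. Probe set 102415_r_at ranged over 1083.5 to 1593.3 at 8 h, against 174.3 to 241.1 untreated, in CHOP-/- arrays, and over 1142.9 to 1798.8 at 8 h, against 155.4 to 342.5 untreated, in wild type arrays.

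At 8 h 102414_i_at was up by 2.42 ± 0.24 in CHOP-/- cells (adjusted p = 5.43e-07) and by 2.24 ± 0.24 in wild type cells (adjusted p = 1.36e-06). For 102415_r_at the changes were 2.72 ± 0.32 in CHOP-/- cells (adjusted p = 5.29e-06) and 2.45 ± 0.32 in wild type cells (adjusted p = 1.77e-05). At 4 h, 102414_i_at gave 0.97 in CHOP-/- cells (adjusted p = 0.0744) and 1.15 in wild type cells (adjusted p = 0.0169), and 102415_r_at gave 1.33 in CHOP-/- cells (adjusted p = 0.0646) and 0.95 in wild type cells (adjusted p = 0.267). Both rose further between 4 h and 8 h. The values were 1.45 in CHOP-/- cells (adjusted p = 0.00164) and 1.09 in wild type cells (adjusted p = 0.0196) for 102414_i_at, and 1.39 in CHOP-/- cells (adjusted p = 0.0222) and 1.50 in wild type cells (adjusted p = 0.0138) for 102415_r_at. The fourth Dnajc3 probe set, 161868_r_at, had signals of 0.2 to 6.5 in all 24 arrays, at or near the pseudocount, and none of its changes was called.

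**Figure D2:**
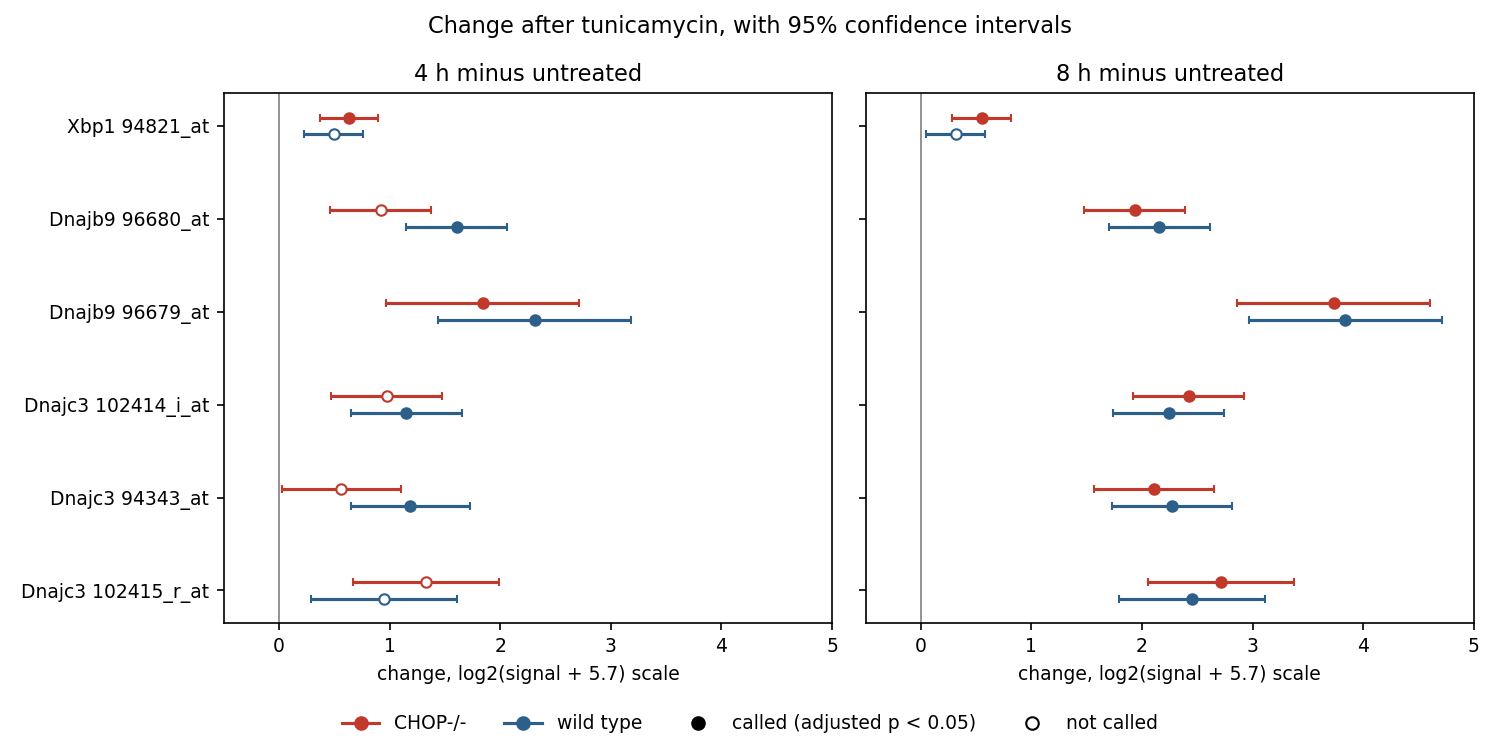
Change from untreated cells at 4 h and at 8 h for 6 probe sets, as a difference of mean log2(signal + 5.7) values, with 95% confidence intervals (n = 4 arrays per group); CHOP-/- is drawn above wild type and filled points are called at an adjusted p under 0.05. All 5 Dnajb9 and Dnajc3 probe sets shown are called at 8 h in both genotypes, and Xbp1 is called in CHOP-/- cells only.

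Of the 7 probe sets, 6 were called higher at 8 h in CHOP-/- cells and 5 in wild type cells. Over all 12422 probe sets tested, 3.66% were called higher at 8 h in CHOP-/- cells and 4.91% in wild type cells. At 4 h 2 of the 7 were called higher in CHOP-/- cells, 94821_at and 96679_at, and 4 in wild type cells, where 0.37% and 0.829% of all probe sets were. Between 4 h and 8 h 5 of the 7 were called higher in CHOP-/- cells and 3 in wild type cells, against 1.39% and 0.91% of all probe sets. Arrays lay above all untreated arrays of their genotype for 6 of the 7 (8 h) and 3 (4 h) in CHOP-/- cells and for 5 (8 h) and 5 (4 h) in wild type cells. Over all probe sets such separation was seen for 5.43% (8 h) and 2.54% (4 h) in CHOP-/- cells and for 7.18% (8 h) and 2.8% (4 h) in wild type cells. By size of increase at 8 h the 5 Dnajb9 and Dnajc3 probe sets ranked between 3 and 21 of 12422 in CHOP-/- cells and between 3 and 19 in wild type cells. Xbp1 ranked 758 in CHOP-/- cells and 2066 in wild type cells. Of the 6 calls at 4 h, 4 were lost when at least 1 single array was left out, all but those of the 2 Dnajb9 probe sets in wild type cells. Of the 8 calls between 4 h and 8 h, 6 were lost in that way, all but those of 102414_i_at and 94343_at in CHOP-/- cells. The comparisons with untreated cells share those untreated arrays within a genotype, so the 4 h and 8 h values are not independent.

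Among the CHOP-/- 4 h arrays, array C had the lowest signal of its group for all 5 Dnajb9 and Dnajc3 probe sets with usable signals. Without it, 4 more probe sets were called in CHOP-/- cells at 4 h: 96680_at at 1.04 (adjusted p = 0.0357), 102414_i_at at 1.23 (adjusted p = 0.00869), 94343_at at 0.96 (adjusted p = 0.00977) and 102415_r_at at 1.60 (adjusted p = 0.0149). The calls of Xbp1 (0.65, adjusted p = 0.0295) and 96679_at (2.30, adjusted p = 0.0038) at 4 h were kept without it. The same omission ended the calls between 4 h and 8 h for 96680_at (0.89, adjusted p = 0.0776), 96679_at (1.43, adjusted p = 0.0909) and 102415_r_at (1.12, adjusted p = 0.12). Over all probe sets, fits without 1 array called 40 to 75 at 4 h in CHOP-/- cells, against 65 as reported. Omitting the lowest array raises the 4 h means by construction. Calls gained or lost without array C are therefore no separate evidence about this array. The median change of 23 reported XBP1 targets other than Dnajb9 and Dnajc3 was −0.05 in this array, against 0.12 to 0.21 in the other CHOP-/- 4 h arrays. Its Xbp1 signal of 2040.7 and its signal of 4941.7 for Herpud1, an ER-associated degradation gene, lay within the range of the other 3 arrays.

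No wild type call at 4 h was kept without arrays A and B, those with high leukocyte markers. With those letters left out of all wild type groups, which leaves 2 arrays per group, the wild type changes at 4 h were 1.29 for 96680_at (adjusted p = 0.193), 1.80 for 96679_at (adjusted p = 0.697), 0.94 for 102414_i_at (adjusted p = 0.753) and 0.81 for 94343_at (adjusted p = 1), none called. The 3 Dnajc3 calls between 4 h and 8 h in wild type cells were lost as well, while their values were 1.26 (102414_i_at), 1.39 (94343_at) and 1.71 (102415_r_at). All wild type calls at 8 h against untreated held. With fewer arrays the fit was less precise: the SE of 96680_at at 4 h was 0.30 against 0.22, with an unadjusted limma p of 0.000513. Over all probe sets, calls at 4 h in wild type cells ranged from 17 to 156 over the alternatives, against 118 as reported. Whether the leukocyte markers had a part in the lost calls was not tested.

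Whether the response needed CHOP was asked by comparing the genotypes. At each time the groups overlapped for all 7 probe sets, and none of them was called between genotypes, where 0.467% of all probe sets were called in untreated cells, 1.16% at 4 h and 2.02% at 8 h. Overlap was usual over all probe sets. All CHOP-/- arrays lay above all wild type arrays for 2.29% untreated, 3.01% at 4 h and 3.8% at 8 h. They lay below for 1.53%, 2.18% and 4.04%. For Xbp1 CHOP-/- minus wild type was 0.00 in untreated cells, 0.14 at 4 h and 0.24 at 8 h (95% confidence interval −0.03 to 0.50). For 94343_at of Dnajc3 it was −0.62 at 4 h (95% confidence interval −1.17 to −0.08, adjusted p = 0.328). Without CHOP-/- 4 h array C that value was −0.23 (adjusted p = 0.787), and the exact permutation p over all 8 arrays was 0.2 (two-sided). At 8 h the letters also paired the genotypes: Xbp1 was higher in the CHOP-/- array of all 4 letter pairs and 94343_at lower in all 4. With the letter as a block in the 8 h groups alone, neither was called (0.24 with an adjusted p of 0.281 for Xbp1 and −0.16 with an adjusted p of 0.243 for 94343_at).

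The difference of the responses, that of CHOP-/- cells minus that of wild type cells, was also tested for each probe set. At 8 h it was 0.24 for Xbp1 (95% confidence interval −0.14 to 0.61), −0.22 for 96680_at (−0.87 to 0.42) and −0.10 for 96679_at of Dnajb9 (−1.34 to 1.13). For Dnajc3 at 8 h it was 0.18 for 102414_i_at (−0.53 to 0.89), −0.16 for 94343_at (−0.93 to 0.60) and 0.26 for 102415_r_at (−0.67 to 1.20). None was called (adjusted p = 0.999 for each), and 0.0242% of all probe sets were. In all 5 Dnajb9 and Dnajc3 probe sets the lower bound was smaller in size than the wild type change at 8 h.

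At 4 h the response difference was −0.69 for 96680_at of Dnajb9 (95% confidence interval −1.33 to −0.04, unadjusted p = 0.0377, adjusted p = 0.996) and −0.62 for 94343_at of Dnajc3 (−1.39 to 0.14). Leaving out single arrays gave −0.92 to −0.49 for 96680_at and −0.84 to −0.23 for 94343_at, the last without CHOP-/- 4 h array C. Without wild type arrays A and B the values were −0.37 for 96680_at and −0.24 for 94343_at. The response difference was 0.14 for Xbp1 (−0.24 to 0.51). The other values were −0.47 for 96679_at (−1.71 to 0.76), −0.18 for 102414_i_at (−0.89 to 0.53) and 0.38 for 102415_r_at (−0.56 to 1.31), so the probe sets of one gene did not share a sign for Dnajc3. With limma 0% of probe sets were called at 4 h, and 515 had an unadjusted p under 0.05, or 4.15%.

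**Figure D3:**
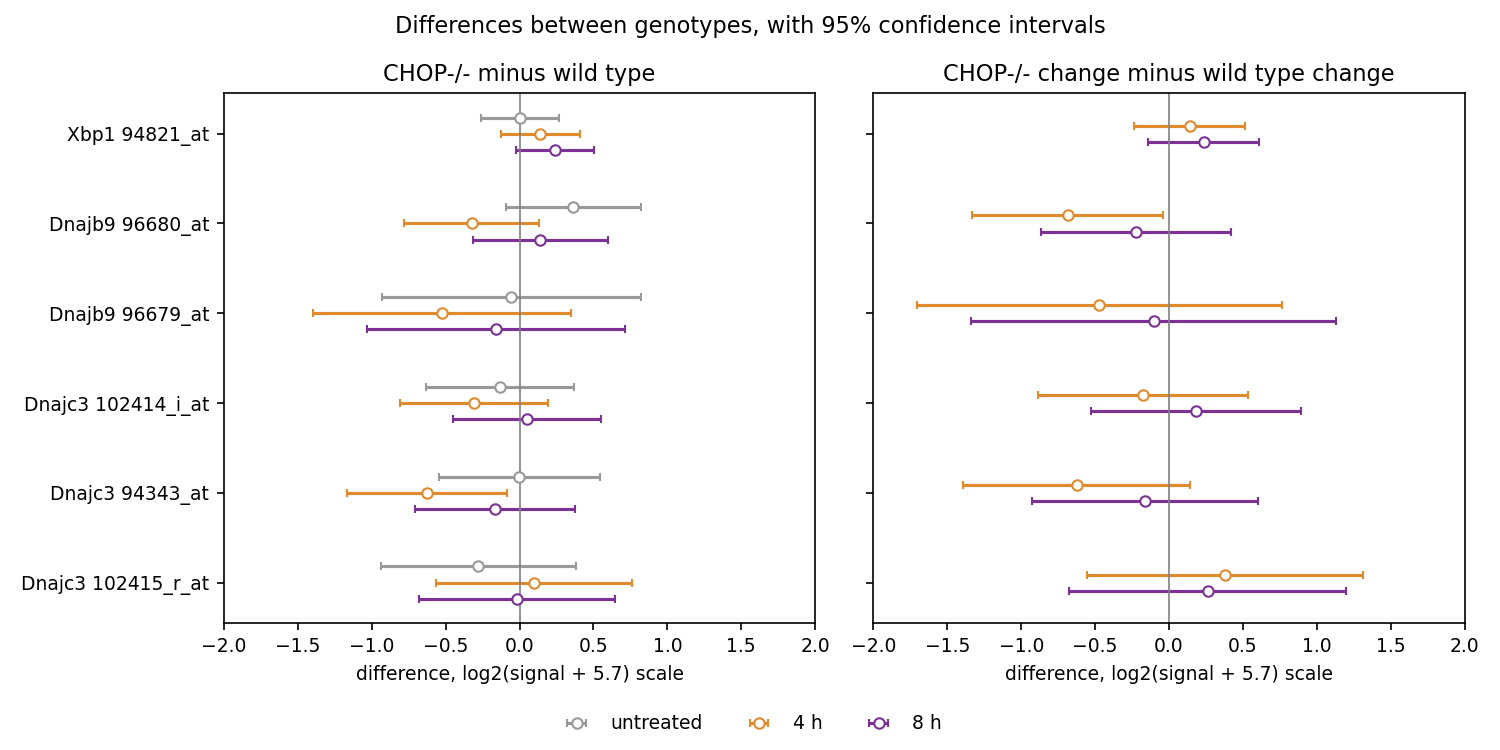
Left, CHOP-/- minus wild type in untreated cells, at 4 h and at 8 h; right, CHOP-/- change minus wild type change at 4 h and 8 h, both as differences of mean log2(signal + 5.7) with 95% confidence intervals (n = 4 arrays per group). No point is called; the intervals of 94343_at at 4 h (left) and of 96680_at at 4 h (right) lie below 0 before adjustment for multiple tests.

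Ordered by mean signal, Xbp1 ran from 2000 ± 89 (SD, n = 4) in CHOP-/- 4 h cells to 1291 ± 223 in untreated CHOP-/- cells, and each group overlapped its neighbour in that order. For 96679_at and all 3 usable Dnajc3 probe sets both 8 h groups came first, overlapped each other and stood clear of the next group. For 96680_at the break lay instead between CHOP-/- 4 h cells (947 ± 362) and untreated CHOP-/- cells (493 ± 128), which held the second lowest mean.

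The other J-protein genes of the ER gave smaller changes. Of 10 listed, 6 were measured, Dnajb9 and Dnajc3 among them, each gene by its probe set with the highest mean. At 8 h 4 of the 6 were called higher in CHOP-/- cells and 4 in wild type cells, none lower, where 3.66% and 4.91% of all probe sets were called higher. Their median change at 8 h was 1.08 in CHOP-/- cells and 0.87 in wild type cells, beside 0.00 and −0.01 over all probe sets. Without Dnajb9 and Dnajc3, 2 of 4 were called higher at 8 h in each genotype, with medians of 0.51 in CHOP-/- cells and 0.46 in wild type cells. Dnajb11, a BiP partner whose product ERdj3 binds unfolded proteins, rose by 1.43 in CHOP-/- cells (adjusted p = 1.17e-05) and by 1.25 in wild type cells (adjusted p = 5.38e-05) at 8 h. Sec63, which works with BiP in translocation through the ER membrane, was called in CHOP-/- cells (0.73, adjusted p = 0.0236) and had 0.49 in wild type cells (adjusted p = 0.145). Dnajc10, an ER disulfide reductase, had 0.07 in CHOP-/- cells (adjusted p = 0.869) and was called in wild type cells (0.42, adjusted p = 0.0359). Dnajc1 had 0.29 in CHOP-/- cells and 0.15 in wild type cells, neither called. No difference between genotypes was called for these 6 genes. Over all probe sets 0.467% were called untreated, 1.16% at 4 h and 2.02% at 8 h, so a count of 0 is near that share.

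Of 29 J-protein genes of other compartments, 22 were measured. At 8 h 1 was called higher and 1 lower in CHOP-/- cells, where 3.66% and 3.17% of all probe sets were, Dnajb2 at 0.72 (adjusted p = 0.00207) and Dnajc9 at −0.57 (adjusted p = 0.0383). Wild type cells had 3 called higher (Dnajc2, Dnaja3 and Dnajb2) and 2 lower, where 4.91% and 3.31% of all probe sets were. Dnajb4 and Dnajb1, cytosolic J-proteins of the heat shock response, were at −1.74 (adjusted p = 0.00282) and −0.58 (adjusted p = 0.0055). The list's median change at 8 h was −0.01 in CHOP-/- cells and −0.02 in wild type cells, beside 0.00 and −0.01 over all probe sets.

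Partners of the ER J-proteins were measured for 8 of 10 genes. At 8 h 4 of the 8 were called higher in each genotype, none lower, with a median change of 0.51 in CHOP-/- cells and 0.59 in wild type cells. Over all probe sets 3.66% were called higher in CHOP-/- cells and 4.91% in wild type cells, with medians of 0.00 and −0.01. Hspa5 was at 0.74 in CHOP-/- cells (adjusted p = 7.23e-05) and 0.74 in wild type cells (adjusted p = 6.11e-05). Pdia4, a protein disulfide isomerase, was at 2.00 in CHOP-/- cells and 2.23 in wild type cells, and Hsp90b1, the ER HSP90, at 1.05 and 1.10. The fourth gene was Pdia3 in CHOP-/- cells (0.57) and Calr in wild type cells (0.89). The Calr probe set had a mean signal of 8.77, near the pseudocount, so its call rests on low signals. Calr had 0.45 in CHOP-/- cells (adjusted p = 0.382), and Pdia3 had 0.44 in wild type cells (adjusted p = 0.133), neither called. The response difference at 8 h was not called for Calr or Pdia3. Hyou1, also counted as measured, had a mean signal of 0.41, below the pseudocount.

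Among reported XBP1 targets, Dnajb9 and Dnajc3 included, 25 of 30 were measured. Hyou1, counted as measured, had a mean signal of 0.41, below the pseudocount. At 4 h 2 of the 25 were called higher in CHOP-/- cells and 5 in wild type cells. At 8 h the counts were 15 and 18, with none lower at any time. Over all probe sets 0.37% and 0.829% were called higher at 4 h and 3.66% and 4.91% at 8 h. The median change at 8 h was 0.66 in CHOP-/- cells and 0.59 in wild type cells, against 0.00 and −0.01 over all probe sets. Without Dnajb9 and Dnajc3, 13 of 23 were called higher at 8 h in CHOP-/- cells and 16 in wild type cells, with medians of 0.62 and 0.58. Herpud1 was early, at 2.77 in CHOP-/- cells and 3.03 in wild type cells at 4 h and at 2.99 and 3.09 at 8 h. Creld2, an ER disulfide isomerase, was at 1.40 in CHOP-/- cells and 1.92 in wild type cells at 4 h and at 3.39 and 3.42 at 8 h. Derl1, of the degradation channel, rose by 1.24 in CHOP-/- cells and by 1.06 in wild type cells at 8 h. None of the 25 was called between genotypes or in a response difference. Over all probe sets 0.467% (untreated), 1.16% (4 h) and 2.02% (8 h) were called between genotypes. For the response difference the shares were 0% at 4 h and 0.0242% at 8 h. The 4 h counts moved with the arrays: without CHOP-/- 4 h array C 5 were called in CHOP-/- cells, and without any 1 of wild type untreated A, untreated D, 4 h A or 4 h B 3 were called in wild type cells.

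**Figure D4:**
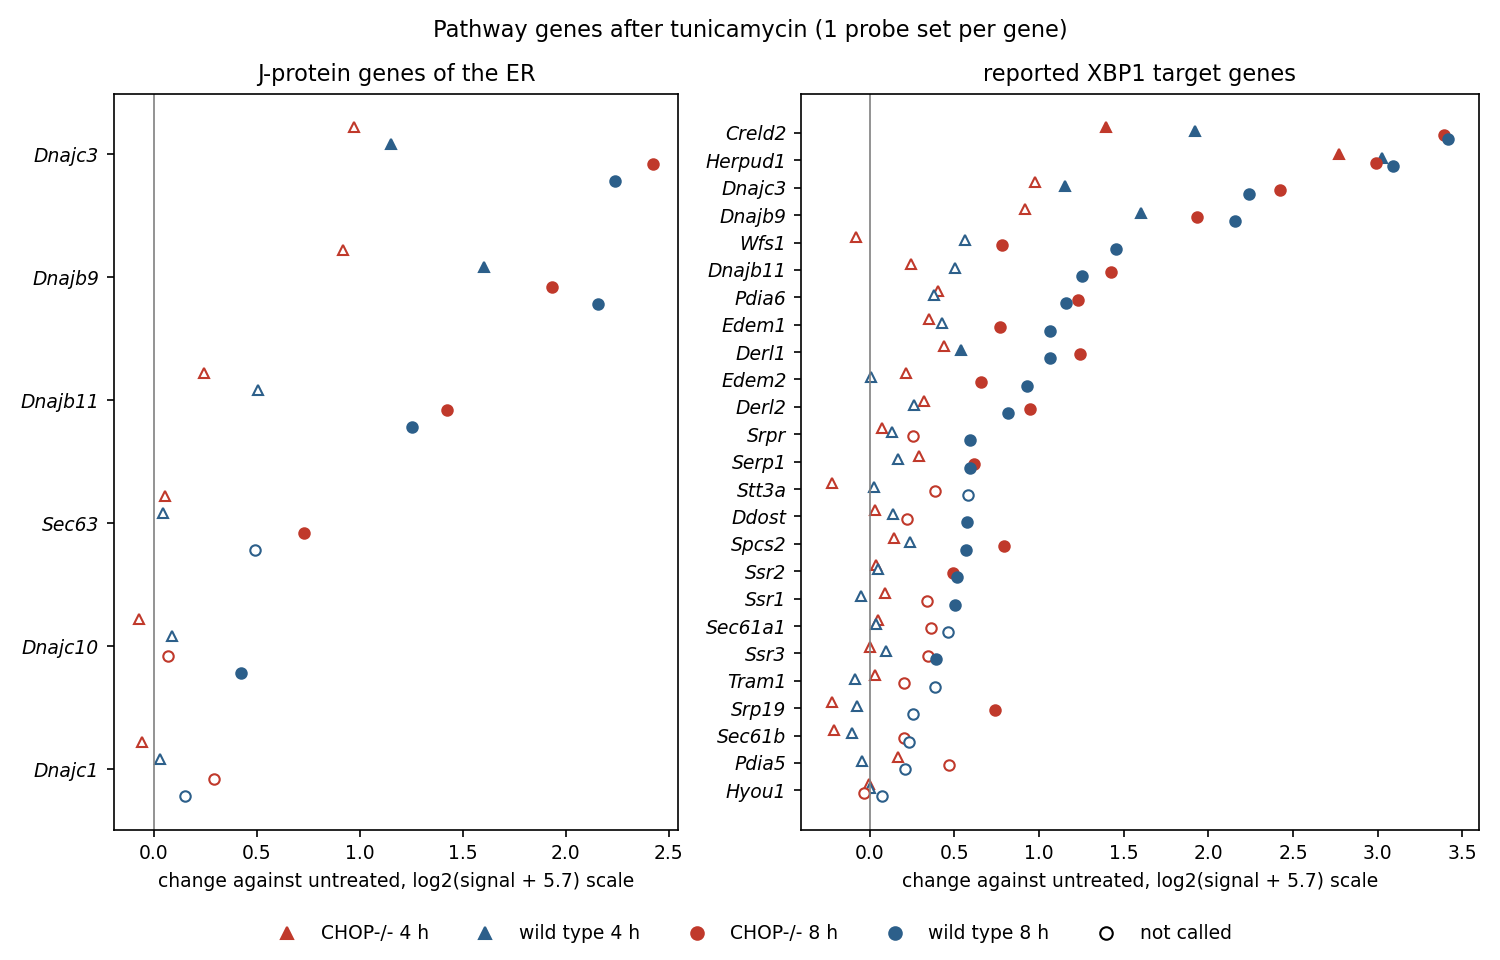
Change from untreated cells, on the log2(signal + 5.7) scale, for the 6 measured ER J-protein genes and the 25 measured reported XBP1 targets, at 4 h (triangles) and 8 h (circles) in CHOP-/- and wild type cells (mean of 4 arrays per group); open symbols are not called. Each gene is drawn by its probe set with the highest mean signal, 96680_at for Dnajb9 and 102414_i_at for Dnajc3. Among these, Dnajb9 and Dnajc3 lead the J-protein genes, and Creld2 and Herpud1 lead the XBP1 targets. Herpud1 is near its 8 h value already at 4 h. The other Dnajb9 probe set, 96679_at, is not drawn. It rose by 3.73 in CHOP-/- cells and by 3.84 in wild type cells at 8 h.

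Of the sensors and transducers of the unfolded protein response, 14 of 19 were measured. At 8 h 6 were called higher in CHOP-/- cells, Xbp1 among them, and 7 in wild type cells, against 3.66% and 4.91% of all probe sets. The median changes were 0.50 and 0.55, beside 0.00 and −0.01 over all probe sets. Atf6 rose by 1.10 in CHOP-/- cells (adjusted p = 0.000142) and by 1.40 in wild type cells (adjusted p = 5.12e-06). Eif2ak3, which encodes PERK, rose by 1.54 in CHOP-/- cells and by 1.42 in wild type cells. Atf4, the factor that PERK signalling induces, was up at 4 h by 0.93 in CHOP-/- cells and by 0.91 in wild type cells.

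IRE1 also cleaves other mRNAs, and 7 of 9 reported substrates were measured. At 8 h 3 of the 7 were called lower in CHOP-/- cells and 4 in wild type cells, none higher, against 3.17% and 3.31% of all probe sets called lower. The median changes were −0.38 and −0.74, beside 0.00 and −0.01 over all probe sets. Hgsnat, a lysosomal acetyltransferase, fell by 1.08 in CHOP-/- cells (adjusted p = 6.69e-05) and by 1.29 in wild type cells (adjusted p = 5.12e-06). Pmp22 fell by 1.06 in CHOP-/- cells (adjusted p = 0.0113) and by 1.60 in wild type cells (adjusted p = 0.00022). Bloc1s1, a subunit of a lysosome-related complex often used as a readout of IRE1, had −0.28 in CHOP-/- cells (adjusted p = 0.376, not called) and fell by 0.81 in wild type cells (adjusted p = 0.0017). Its response difference at 8 h (0.53, adjusted p = 0.999) and its CHOP-/- minus wild type value untreated (−0.41, adjusted p = 0.509) were not called. Col6a1 was called lower in CHOP-/- cells (−0.72, adjusted p = 0.0418) and had −0.36 in wild type cells (adjusted p = 0.394). At 4 h none of the 7 was called in either genotype, where 0.523% of all probe sets were in CHOP-/- cells and 0.95% in wild type cells. Pdgfrb was the one gene of this list called between genotypes, at 0.75 for CHOP-/- minus wild type at 8 h (adjusted p = 0.0335), a call lost under 6 of 21 alternatives. Over all probe sets 2.02% were called between genotypes at 8 h.

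The probe sets most like each member were ranked by Pearson correlation of log2 values over all 24 arrays, among 6769 probe sets with 1 gene name and a mean above the 40th percentile. All 24 arrays share the groups' treatment, so these values describe likeness of pattern only. Nearest to Xbp1 were Epc1 (r = 0.871), Txnip (0.862) and Nfil3 (0.851). Nearest to 96680_at of Dnajb9 were Hspa5 (0.971), Sel1l (0.942) and Rabepk (0.934), and nearest to 96679_at were Ero1b (0.968), Creld2 (0.965) and Pdia4 (0.962). For Dnajc3 the 3 nearest were Ero1b (0.982), Creld2 (0.968) and Derl1 (0.964) for 102414_i_at, Ero1b (0.973), Creld2 (0.963) and Sel1l (0.953) for 94343_at, and Ero1b (0.948), Derl1 (0.937) and Dnajb11 (0.935) for 102415_r_at. Ero1b, an oxidase of the ER, was thus first for 4 of the 5 usable Dnajb9 and Dnajc3 probe sets.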

How the data were processed

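Total RNA of 24 samples was measured on 1-colour oligonucleotide arrays, and the authors deposited 1 linear signal (intensity) per probe set and array. From the values, each array had been scaled to a common mean after trimming 2% at each end (250.128 to 250.177). The software and scaling method were not given in the sources used here. Median signals were 48.2 to 72.6, the 3' to 5' control ratio was 0.752 to 0.852 for Gapdh, and 4 arrays per group limit the precision.

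A pseudocount of 5.7, the 20th percentile of signals, was added before log2, so changes of low signals are understated. Log2 values were quantile normalized and 66 control probe sets removed. All 12422 others were fitted without a filter on low signals and without reduction to 1 probe set per gene, so that every member was tested in 1 fit. limma 3.58.1 in R 4.3.3 fitted 6 group means with an intensity trend (residual degrees of freedom 18, median prior 4.47). The 12 contrasts were adjusted by Benjamini-Hochberg each, and a two-sided adjusted p under 0.05 was called. The fit was tested on simulated data. Gene names came from the array's annotation table. Promoter windows and motifs were read with Python 3.11.15 and pandas 2.3.3, and plots were drawn with matplotlib 3.10.9 and numpy 2.4.6.

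The members and gene lists were chosen with earlier results of these data known. From each list up to 6 called genes per contrast by smallest adjusted p could be named, any called against the majority, every ER J-protein gene, and the 3 probe sets most like each member.

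Replicate letters are shared by all groups. Deviations from group means of same-letter arrays correlated above 0.1 in all 4 pairs for the 3 pairings of wild type groups (0.23 to 0.616), for CHOP-/- 8 h with wild type 8 h (0.271 to 0.538) and with untreated wild type arrays (0.209 to 0.473, not compared here), but not between CHOP-/- times (lowest −0.331). The letter was therefore taken to pair the wild type times and the genotypes at 8 h. Alternatives were other scalings, pseudocounts, filters, array weights, a fit without trend, fits of the compared groups alone, the letter as a block, exact permutation, and omission of single arrays, of the arrays lettered C and of wild type arrays A and B. The last 2 omissions, and the block in fits of the compared groups alone, were chosen after seeing the data.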

Additional observations from a re-analysis of the deposited data

Results flagged for a closer look

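In 42 groups of 4 signals, 2 held an array far from its group by Dixon's test, and chance gives about 1 in 20. Probe set 102415_r_at of Dnajc3 had a signal of 1798.8 in wild type 8 h array B, against 1142.9 to 1233.5 in the other 3 arrays of that group. Probe set 161868_r_at of Dnajc3 had 4.2 in CHOP-/- 8 h array D, against 0.5 to 0.9 in the others, all below the pseudocount.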

How the results depend on the processing

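Across 1608 values of the member probe sets other than 161868_r_at under alternatives, 1509 kept their call, 73 lost it and 26 gained it. No called value changed sign, and 48 values called in neither setting did. All calls of the 5 usable Dnajb9 and Dnajc3 probe sets at 8 h against untreated held under every alternative run. Calls at 4 h and between 4 h and 8 h were less stable, and the cause was not tested. Values below are log2 changes with limma's adjusted p unless said otherwise. The exact test was counted, in these totals too, as a call when its unadjusted p was under 0.05. For 4 against 4 arrays its smallest p is 0.0286, which complete separation of the arrays gives, so it is not comparable with an adjusted call.

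For Xbp1 in wild type cells at 4 h, 0.493 was called with a filter at the 40th percentile (adjusted p = 0.0461), with that filter on 1 probe set per gene (0.0412) and by the exact test (p = 0.0286), and 0.484 with array weights (0.0418). In CHOP-/- cells at 4 h it was not called when arrays were centred on their medians (0.652, adjusted p = 0.179), in the compared groups alone (0.632, 0.189) or without the arrays lettered C (0.556, 0.111), which also ended the 8 h call (0.408, 0.101).

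In CHOP-/- cells at 4 h, 96680_at (0.918) and 102414_i_at (0.974) were called with the filter (adjusted p = 0.0378 and 0.0425) and with that filter on 1 probe set per gene (0.0341 and 0.0373), and 96680_at by the exact test (p = 0.0286). 102415_r_at was called with the filter (1.326, adjusted p = 0.0378), with array weights (1.377, 0.044) and by the exact test (1.326, p = 0.0286), and 94343_at without the arrays lettered C (0.832, 0.0268). 96679_at lost its call at the deposited scaling (1.78, adjusted p = 0.0819), with median centring (1.788, 0.0537), without the trend (1.839, 0.0537), with a pseudocount of 32 (1.582, 0.0717), in the compared groups alone (1.839, 0.343) and by the exact test (1.839, p = 0.0571).

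Between 4 h and 8 h in CHOP-/- cells, the compared groups alone gave no call for 96680_at (1.016, adjusted p = 0.0638), 96679_at (1.895, 0.112), 102414_i_at (1.449, 0.0632), 94343_at (1.547, 0.0756) and 102415_r_at (1.389, 0.074). Omitting the arrays lettered C ended it for 96680_at (0.891, 0.131), 96679_at (1.597, 0.0517) and 102415_r_at (1.072, 0.25), and in wild type cells for 102414_i_at (1.041, 0.0621) and 102415_r_at (1.489, 0.0635). For wild type cells, 96679_at was called with the filter (1.528, 0.0412), with median centring (1.63, 0.038) and by the exact test (1.528, p = 0.0286). Without wild type arrays A and B (2 per group), calls were lost at 4 h (96680_at 1.289, 96679_at 1.802, 102414_i_at 0.935, 94343_at 0.806) and between 4 h and 8 h (102414_i_at 1.257, 94343_at 1.393, 102415_r_at 1.708).

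With the replicate block by letter, 96679_at between 4 h and 8 h in wild type cells was called (1.528, adjusted p = 0.0195, and 0.0235 in the compared groups alone). So was wild type Xbp1 at 8 h in the compared groups alone (0.315, 0.043). The letters did not pair the CHOP-/- times, where the block called 96680_at (0.918, 0.0282), 102414_i_at (0.974, 0.0255) and 102415_r_at (1.326, 0.0255) at 4 h. The block changed no other call of a member. In fits of the compared groups alone, the counts over all probe sets with and without the block were 1598 and 877 in wild type cells at 8 h (1021 in all groups without it), 109 and 62 at 4 h, 270 and 83 between 4 h and 8 h, and 480 and 218 between genotypes at 8 h.

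Leaving out 1 array gave these ranges where a call changed. In wild type cells at 4 h the calls were lost without untreated A, untreated D, 4 h A or 4 h B (102414_i_at) and without untreated A, untreated B, 4 h A, 4 h B or 4 h D (94343_at). Between 4 h and 8 h they were lost without 4 h C, 4 h D, 8 h B or 8 h D (102414_i_at), any array but 4 h B (94343_at) and 4 h C, 4 h D or 8 h B (102415_r_at). In CHOP-/- cells between 4 h and 8 h they were lost without 4 h C, 4 h D or 8 h D (96680_at), 4 h C, 4 h D, 8 h B or 8 h D (96679_at) and any array but 4 h A, 4 h B or 8 h A (102415_r_at). At 4 h 96679_at was called only without untreated A or 4 h C. For Xbp1 in CHOP-/- cells at 4 h it was 0.539 to 0.741. In CHOP-/- cells at 4 h it was 0.685 to 1.041 for 96680_at, 1.466 to 2.304 for 96679_at, 0.706 to 1.225 for 102414_i_at, 0.346 to 0.958 for 94343_at and 1.063 to 1.595 for 102415_r_at. Between 4 h and 8 h in CHOP-/- cells it was 0.893 to 1.249 for 96680_at, 1.431 to 2.268 for 96679_at and 1.121 to 1.653 for 102415_r_at. In wild type cells it was 1.004 to 1.294 for 102414_i_at and 1.077 to 1.324 for 94343_at at 4 h. From 4 h to 8 h it was 1 to 1.185 for 102414_i_at, 0.95 to 1.197 for 94343_at and 1.316 to 1.793 for 102415_r_at.

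Counts over all probe sets ranged under the alternatives, single omissions included, from 13 to 101 in CHOP-/- cells at 4 h (65 as reported), 17 to 156 in wild type cells at 4 h (118), 270 to 1598 in wild type cells at 8 h (1021), 59 to 375 between 4 h and 8 h in CHOP-/- cells (274) and 20 to 303 in wild type cells (202). Between genotypes they ranged over 11 to 91 in untreated cells (58), 54 to 203 at 4 h (144) and 134 to 480 at 8 h (251), and for the response difference over 0 to 1 at 4 h (0) and 1 to 4 at 8 h (3). Called XBP1 targets ranged at 4 h over 1 to 5 in CHOP-/- cells (2) and 1 to 5 in wild type cells (5), and at 8 h over 13 to 16 in CHOP-/- cells (15) and 12 to 20 in wild type cells (18). ER J-protein genes called at 4 h ranged over 0 to 2 in CHOP-/- cells (0) and 0 to 2 in wild type cells (2). Without wild type arrays A and B, the wild type counts at 8 h were 2 for partners (4), 2 for IRE1 substrates (4) and 0 for other J-protein genes (3 higher, 2 lower). Other J-protein genes called lower at 8 h in CHOP-/- cells ranged over 0 to 2 (1).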
